A study of Homo sapiens with 6 samples.

Results

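The U4/U6.U5 tri-snRNP is the particle that brings U4, U5 and U6 small nuclear RNA to the assembling spliceosome. The 10 genes described here encode its U5, U4/U6 and joining proteins around PRPF8, and were taken by matching listed symbols to the rows of the deposited count table. All 10 of 10 had a row, among 11957 rows in all. The cells were OVCA433, an established line from a human ovarian cancer, sequenced as poly(A)-enriched RNA in 2 groups of 3 libraries whose genotype is labelled U2AF2 SI and U2AF2 SINC. The labels expand neither abbreviation and name no other allele or agent, and whether replicates are separate cultures is not stated, so a p-value here reflects only spread among these libraries, which may be technical. They are called SI-labelled and SINC-labelled libraries here, and each log2 fold change is SI-labelled minus SINC-labelled.

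The series is about a deficiency of U2AF2, the large subunit of the U2 auxiliary factor, which recognises the pyrimidine-rich stretch of a 3′ splice site. U2AF2 itself stood at 285, 345 and 373 CPM (counts scaled to TMM-adjusted library size) in SI-labelled replicates 1, 2 and 3, and at 252, 284 and 205 CPM in SINC-labelled replicates 1, 2 and 3. Its lower level was therefore in the SINC-labelled libraries, and every direction given below carries that limit (edgeR log2 fold change 0.44 ± 0.19 SE, adjusted p = 0.653). The sample descriptions tie the N columns of the table to U2AF2 SI and the S columns to U2AF2 SINC. Whether these names are crossed cannot be told from the sources used here, and if SI denotes the knockdown and they are, the sign of every difference is reversed. The libraries held 43333966 to 48976810 counts. Of 12 markers of ovarian and epithelial carcinoma, 3 (MUC1, KRT8 and KRT18) had a row. They summed to 242 to 410 CPM in SI-labelled and 312 to 455 CPM in SINC-labelled libraries. KRT18 alone had means of 290 and 329 CPM in those groups. PAX8, MUC16, WFDC2, MSLN, EPCAM, KRT7, KRT19, CDH1 and CDH6 had no row in the deposited table. Fibroblast markers had 4 of 8 rows, summing to 65.1 to 83.9 CPM in SI-labelled and 48.6 to 70.3 CPM in SINC-labelled libraries. COL3A1 alone had means of 60.8 and 43.6 CPM in those groups. Leukocyte markers had 1 of 8 rows (CD68) and endothelial markers 0 of 6. Their part in the results was not tested.

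Within the particle, PRPF8 is the large scaffold protein that holds the catalytic RNA, EFTUD2 is a GTPase bound to it, and SNRNP200 is the helicase that unwinds U4 from U6 when the spliceosome is activated. SNRNP40 is a WD-repeat protein of U5, PRPF6 bridges U5 to U4/U6, and TXNL4A is a small thioredoxin-fold protein of U5. PRPF3 and PRPF4 sit together on U4/U6, PRPF31 clamps the U4 stem with SNU13, and SART1 belongs to the joined tri-snRNP. Inherited variants of PRPF8, SNRNP200, PRPF6, PRPF3, PRPF4 and PRPF31 are known causes of dominant retinitis pigmentosa, and those of EFTUD2 and TXNL4A of craniofacial syndromes.

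The promoters of PRPF8, SNRNP200 and PRPF4, the 3 genes with an unadjusted p under 0.05, are shown with that of TXNL4A, the gene with the lowest log2 fold change. Each runs from 250 bases before to 50 after the annotated start, 5′ to 3′ on the gene's own strand, from RefSeq on GRCh38.p14, and capitals mark the motif matches counted next. They lie at chr17:1684818-1685117 (minus strand), chr2:96305497-96305796 (minus), chr9:113275408-113275707 (plus) and chr18:80033887-80034186 (minus). The promoter at the other TXNL4A start, chr18:79988514-79988813 (minus), is not printed, and which start these cells use was not tested.
PRPF8: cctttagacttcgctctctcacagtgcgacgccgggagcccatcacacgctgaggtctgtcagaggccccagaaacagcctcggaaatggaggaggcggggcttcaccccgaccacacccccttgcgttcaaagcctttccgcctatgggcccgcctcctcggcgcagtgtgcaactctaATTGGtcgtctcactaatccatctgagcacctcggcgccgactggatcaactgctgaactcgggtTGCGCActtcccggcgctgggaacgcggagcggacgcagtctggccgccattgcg
SNRNP200: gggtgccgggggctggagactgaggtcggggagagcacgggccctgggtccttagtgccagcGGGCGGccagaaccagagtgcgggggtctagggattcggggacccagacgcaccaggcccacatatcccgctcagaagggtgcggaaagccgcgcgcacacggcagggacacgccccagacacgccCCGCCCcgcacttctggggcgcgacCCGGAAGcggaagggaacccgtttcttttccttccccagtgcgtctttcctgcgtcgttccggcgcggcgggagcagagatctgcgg
PRPF4: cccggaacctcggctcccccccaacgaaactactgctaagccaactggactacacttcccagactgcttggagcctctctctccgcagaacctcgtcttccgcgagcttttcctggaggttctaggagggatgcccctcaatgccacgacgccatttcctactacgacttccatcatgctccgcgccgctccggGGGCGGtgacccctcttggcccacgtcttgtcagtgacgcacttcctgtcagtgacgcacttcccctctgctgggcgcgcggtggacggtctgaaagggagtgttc
TXNL4A: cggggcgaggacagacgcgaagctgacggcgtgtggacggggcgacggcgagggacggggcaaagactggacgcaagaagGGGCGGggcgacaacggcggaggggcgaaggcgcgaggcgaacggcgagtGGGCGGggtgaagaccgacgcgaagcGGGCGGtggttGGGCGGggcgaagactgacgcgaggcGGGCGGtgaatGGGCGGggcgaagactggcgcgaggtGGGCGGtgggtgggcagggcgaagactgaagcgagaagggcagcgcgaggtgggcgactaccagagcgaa

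Of the 10 genes, 9 had a promoter in the table, EFTUD2 and TXNL4A with 2 starts each, and 8 motifs were searched on both strands. The GC box GGGCGG was in the promoters of 6 of the 9 genes, against 45% of all 35116 promoters in the table, which cover coding and noncoding genes. It occurs once in PRPF4 and repeatedly in the TXNL4A promoter printed above, while the other TXNL4A start matched only at 43 bases after the start. A gene with 2 starts was counted if either matched, whereas the shares of all promoters are per promoter. The ETS core CCGGAAG was in 3 of 9 (SNRNP200, PRPF6 and SART1) against 10.3%, and the CCAAT box CCAAT in 3 of 9 (PRPF8, SNRNP40 and PRPF31) against 34.6%. TGACGTCA was in SNRNP40 against 1.85%, CACGTG in EFTUD2 against 7.26%, and TGCGCA in PRPF8 and SART1 against 8.24%. TATAAA (11.5% of all promoters) and AAGATGG (5.84%) were in 0 of 9. No motif was shared by PRPF8 and SNRNP200 or by PRPF8 and PRPF4, and no match overlapped another in the 4 promoters printed.

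PRPF8 was at 389, 406 and 431 CPM in SI-labelled replicates 1, 2 and 3, and at 255, 249 and 318 CPM in SINC-labelled replicates 1, 2 and 3. The groups did not overlap, and SINC-labelled replicate 3 was the nearest to the other group. In bulk RNA, fewer cells expressing a gene and less of its RNA per cell cannot be told apart. This is a log2 fold change of 0.58 ± 0.18 (SE; 95% interval 0.19 to 0.97) with an unadjusted edgeR p of 0.00699. It ranked 89 by p among 11957 rows, and the adjusted p was 0.653, so it did not pass over all rows. By exact permutation (2-sided) p was 0.1, the smallest that 3 libraries against 3 allow. DESeq2, whose independent filtering left 1062 rows with an adjusted p, called PRPF8 at an adjusted p of 0.0459, and PRPF8 was the 1 row higher in SI-labelled libraries among the 61 it called. Over every row DESeq2 gave PRPF8 an adjusted p of 0.25.

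Across the 10 genes, 0 passed over all rows in edgeR, where 1 row, or 0.00836%, was called. An unadjusted p under 0.05 was found for 3 of 10 (PRPF8, PRPF4 and SNRNP200), all higher in SI-labelled libraries, against 7.37% of all rows in either direction, 3.15% higher and 4.22% lower. The groups did not overlap for 3 of 10 (PRPF8, EFTUD2 and PRPF4), all higher in SI-labelled libraries, against 13% of all rows in either direction, 7.36% higher and 5.68% lower. The log2 fold change was above 0 for 7 of 10, against 54.3% of rows, and its median was 0.18, against 0.04 over all rows. With the dependence on transcript length and base composition removed, as described below, the median of the 10 was 0.075. Without SINC-labelled replicate 3 there were 7 of 10 genes with no overlap, against 35.7% of rows, and 4 of 10 at an unadjusted p under 0.05, against 14.4%. Without SI-labelled replicate 2 there were 5 of 10 with no overlap, against 23.2%. Without SI-labelled replicate 3, SINC-labelled replicate 1 or SINC-labelled replicate 2, PRPF8 was the 1 gene of the 10 left at an unadjusted p under 0.05, as it was with the replicate number as a block. The shares of all rows were then 6.57%, 3.43%, 3.21% and, with the block, 4.58%. Without SI-labelled replicate 1 or 2 there were 2 of 10 genes, against 6.36% and 6.85%.

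**Figure D1:**
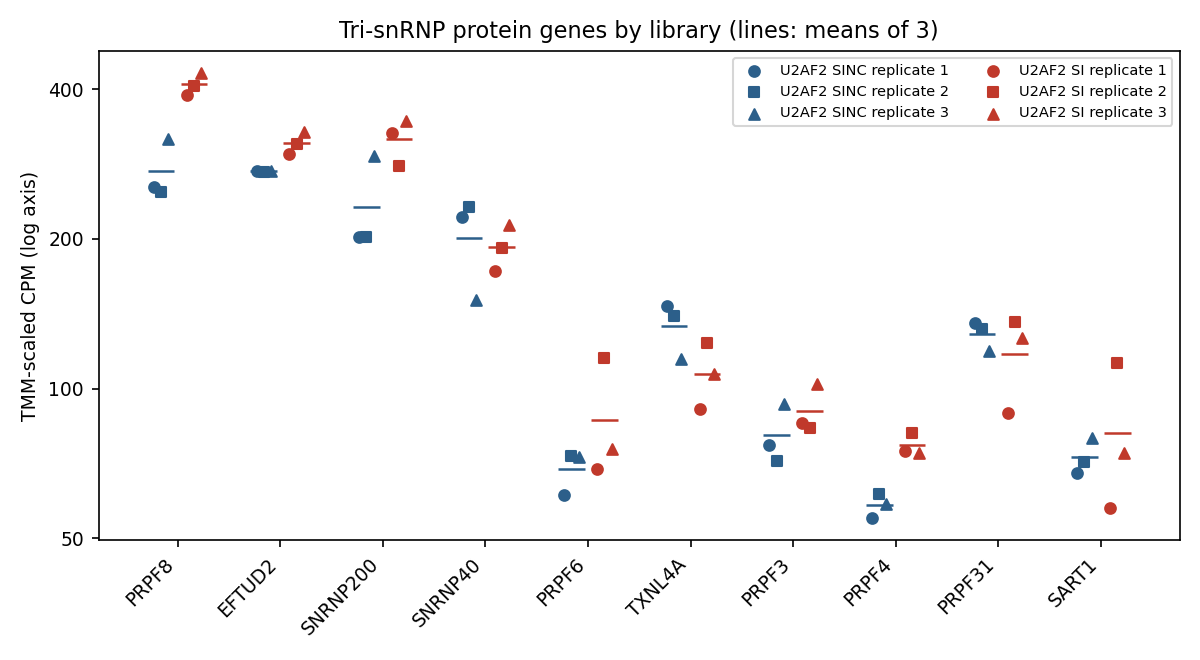
TMM-scaled CPM on a log axis for each of the 10 genes, with 1 point for each library and a line at the mean of 3. The groups are apart for PRPF8, EFTUD2 and PRPF4; SINC-labelled replicate 3 (blue triangles) lies nearest to the SI-labelled libraries for PRPF8 and among them for SNRNP200 and TXNL4A.

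Among the partners of PRPF8 in U5, EFTUD2 had 296, 310.1 and 328 CPM in SI-labelled replicates 1, 2 and 3 and 274, 272 and 274 CPM in SINC-labelled replicates 1, 2 and 3. The SINC-labelled libraries were nearly level, with an SD of 0.937 CPM, and every SI-labelled library was above them. The log2 fold change was small, at 0.19 ± 0.16 (SE), with an interval from -0.17 to 0.54 (edgeR adjusted p = 0.777). SNRNP200 had 327, 280.1 and 345 CPM in SI-labelled and 202, 201 and 293 CPM in SINC-labelled replicates 1, 2 and 3. SINC-labelled replicate 3 was above SI-labelled replicate 2, so the groups overlapped by those libraries. Its log2 fold change was 0.45 ± 0.20 (SE), with an unadjusted p of 0.0445 and an adjusted p of 0.658 in edgeR. That p was above 0.05 with RLE scaling (0.0543), with upper-quartile scaling (0.0557), without assembled loci (0.0504) and with the replicate block (0.0792). Omitting 1 library gave a log2 fold change of 0.36 to 0.66, the highest without SINC-labelled replicate 3, where the groups did not overlap. The p was above 0.05 in 4 of the 6 omissions.

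SNRNP40 lay at 172, 192 and 214 CPM in SI-labelled replicates 1, 2 and 3 and at 221, 232 and 150.4 CPM in SINC-labelled replicates 1, 2 and 3. The SI-labelled values fell inside the span of the SINC-labelled ones, where replicate 3 was again apart from replicates 1 and 2, here on the low side (log2 fold change -0.06, 95% interval -0.50 to 0.38). PRPF6 was at 69.0, 115 and 75.5 CPM against 61.0, 73.2 and 72.9 CPM, with SI-labelled replicate 2 far above the other libraries. Its log2 fold change of 0.33 ± 0.21 (SE) came down to 0.08 without that library. TXNL4A was the lowest of the 10 by log2 fold change, at -0.32 ± 0.18 (SE), with an interval from -0.72 to 0.08 and an edgeR adjusted p of 0.699. Its levels were 91.0, 123 and 107 CPM in SI-labelled and 147, 139.7 and 115 CPM in SINC-labelled replicates 1, 2 and 3, so that the groups overlapped by SI-labelled replicate 2 and SINC-labelled replicate 3.

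Of the U4/U6 proteins, PRPF4 was the one whose groups were apart. It had 74.8, 81.6 and 74.3 CPM in SI-labelled and 54.9, 61.3 and 58.5 CPM in SINC-labelled replicates 1, 2 and 3. The lowest SI-labelled library was thus above the highest SINC-labelled one, and SINC-labelled replicate 3 was level with its group. The log2 fold change was 0.40 ± 0.16 (SE), with an interval from 0.05 to 0.75, an unadjusted p of 0.0279 and an adjusted p of 0.653 in edgeR. PRPF3, which binds PRPF4, had 85.2, 83.2 and 102 CPM against 76.9, 71.5 and 93.0 CPM, with replicate 3 the highest in each group (log2 fold change 0.16, interval -0.22 to 0.55). PRPF31 had 89.4, 136 and 127 CPM against 136, 132 and 119 CPM. Only SI-labelled replicate 1 lay outside the SINC-labelled span by more than a few CPM, on the low side, and the log2 fold change was -0.13 ± 0.19 (SE).

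SART1, of the joined particle, had 57.4, 113 and 74.4 CPM in SI-labelled and 67.6, 71.3 and 79.7 CPM in SINC-labelled replicates 1, 2 and 3. The SI-labelled libraries held both its lowest and its highest value, and the log2 fold change was 0.16 ± 0.23 (SE), with an interval from -0.35 to 0.67. As for PRPF6, SI-labelled replicate 2 was the highest, and without it the SART1 value was -0.13. The transcripts of SART1, PRPF31 and PRPF6 had the highest GC content of the 10, at 60.5%, 58.5% and 57.0%, and the part of base composition in these levels was not tested gene by gene.

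**Figure D2:**
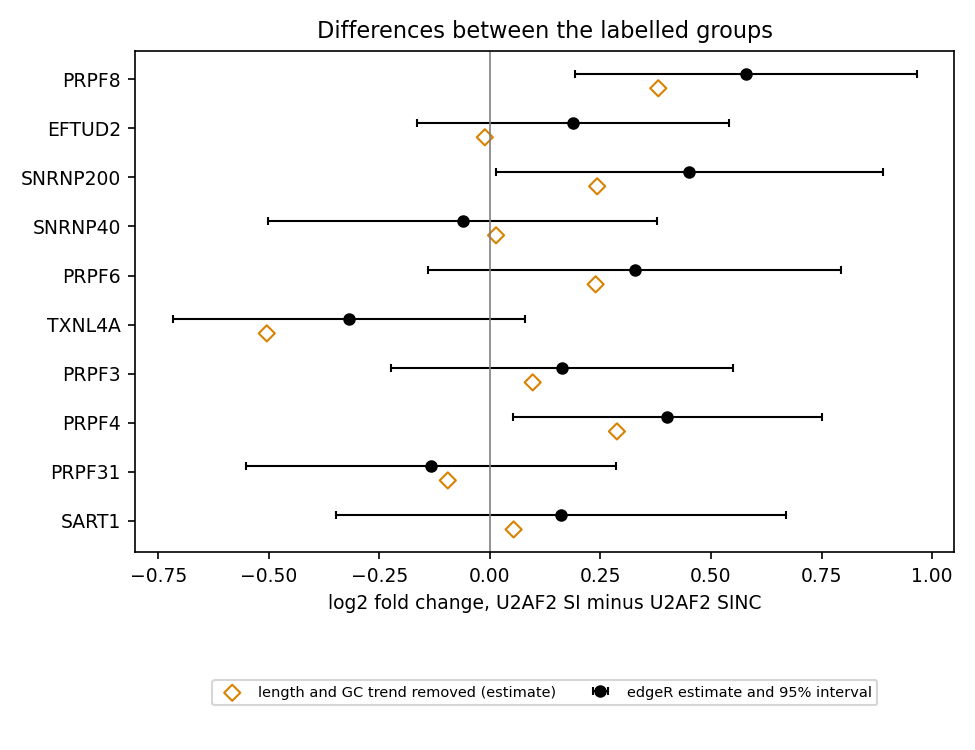
The log2 fold change (SI-labelled minus SINC-labelled) of each gene, with black points for the edgeR estimate and its 95% interval, and open diamonds for the estimate after the dependence on transcript length and base composition was removed. The intervals of PRPF8, SNRNP200 and PRPF4 lie above 0, and PRPF8 is at 0.58, or 0.38 with the trend removed.

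Ratios of counts within a library need no scaling between libraries, so PRPF8 was also set against each of the other 9 genes. These ratios still carry any dependence on transcript length and base composition, described below, and were not recomputed with it removed. PRPF8 had 1.32, 1.31 and 1.31 counts per EFTUD2 count in SI-labelled replicates 1, 2 and 3, and 0.929, 0.913 and 1.16 in SINC-labelled replicates 1, 2 and 3. The ratio was nearly the same in the 3 SI-labelled libraries and lower in each SINC-labelled one. For TXNL4A the ratio was 4.28, 3.29 and 4.02 against 1.74, 1.78 and 2.77, a difference of 0.91 on the log2 scale. PRPF8 counts per PRPF31 count were 4.36, 2.98 and 3.41 against 1.88, 1.89 and 2.67, and per PRPF3 count 4.57, 4.88 and 4.23 against 3.31, 3.48 and 3.41. For these 4 of 9 ratios the groups did not overlap, with 2-sided exact permutation p = 0.1, the smallest possible, and an adjusted p of 0.225 over the 9 ratios. PRPF8 by itself already separated the groups, and the share of all rows whose ratio to PRPF8 does so was not computed. The count of 4 is therefore not read as particular to these genes.

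The ratio of PRPF8 to SNRNP200 was the closest between the groups, at 1.19, 1.45 and 1.25 in SI-labelled and 1.26, 1.23 and 1.08 in SINC-labelled replicates 1, 2 and 3. The groups overlapped, with a log2 difference of 0.12 (exact permutation p = 0.5). PRPF8 to SNRNP40 was 2.26, 2.11 and 2.02 against 1.15, 1.07 and 2.11, where SINC-labelled replicate 3 lay among the SI-labelled libraries. The ratios to PRPF6, PRPF4 and SART1 overlapped too, with log2 differences of 0.29, 0.19 and 0.48. All 9 log2 differences were above 0, and all 9 share the PRPF8 counts.

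**Figure D3:**
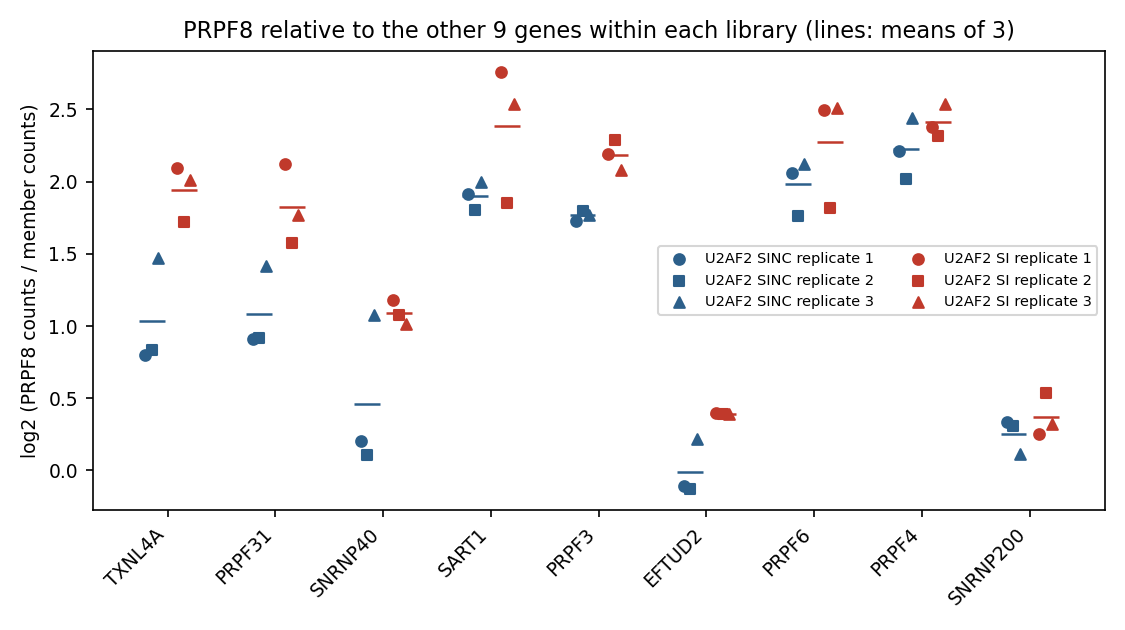
The log2 ratio of PRPF8 counts to the counts of each other gene, with 1 point for each library and lines at the mean of 3, in descending order of the difference between groups. The groups are apart for TXNL4A, PRPF31, PRPF3 and EFTUD2, and the 3 SI-labelled points of EFTUD2 lie on each other.

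Per kilobase of transcript, the 10 genes were not level. SNRNP40 stood highest, at 94.2 to 145 CPM per kb over the 6 libraries, above every library of the next gene, EFTUD2, at 59.9 to 72.2 CPM per kb. Below it came PRPF31, PRPF8, SNRNP200, PRPF3, TXNL4A, PRPF6, PRPF4 and SART1, with means over the 6 libraries of 57.9, 45.8, 38.4, 35.1, 34.4, 25.6, 24.2 and 23.4 CPM per kb. Neighbours in that order from EFTUD2 down overlapped over the 6 libraries. PRPF8 had 54.9 ± 2.82 CPM per kb (SD, n = 3) in SI-labelled and 36.8 ± 5.13 (SD, n = 3) in SINC-labelled libraries. TXNL4A had 30.6 ± 4.60 CPM per kb (SD, n = 3) and 38.2 ± 4.79 (SD, n = 3), on a transcript model of 3504 nt of which 426 nt are coding, so its level per kb depends on that model. Its mean was below that of PRPF8 in the former libraries and above it in the latter.

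Transcript length moved with the differences over the whole table. Among rows with a transcript of 192 to 1803 nt the median log2 fold change was -0.25, and it was -0.02, 0.11, 0.18 and 0.19 in the next 4 length classes, the last from 5364 nt upward. PRPF8 (7445 nt, 42 exons) and SNRNP200 (7165 nt, 45 exons) belong to the longest class and lay above its median. SNRNP40 (1597 nt) belongs to the shortest and lay above its median too. TXNL4A, in a class with a median of 0.11, lay below it at -0.32. After a loess fit on length, then on GC content, was subtracted in every library, PRPF8 was at 0.38 ± 0.14 (SE), PRPF4 at 0.29 ± 0.12 (SE) and TXNL4A at -0.50 ± 0.19 (SE). Their unadjusted edgeR p-values in that fit were 0.0259, 0.0337 and 0.0240, and each had an adjusted p of 0.653. The TXNL4A value in that fit depends on its transcript model of 3504 nt, of which 426 nt are coding. SNRNP200 came to 0.24 ± 0.15 (SE) and EFTUD2 to -0.011. In that fit 3 of 10 genes had an unadjusted p under 0.05, against 7.4% of rows, and 2 of 10 (PRPF8 and PRPF4) had no overlap, against 13.4%.

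**Figure D4:**
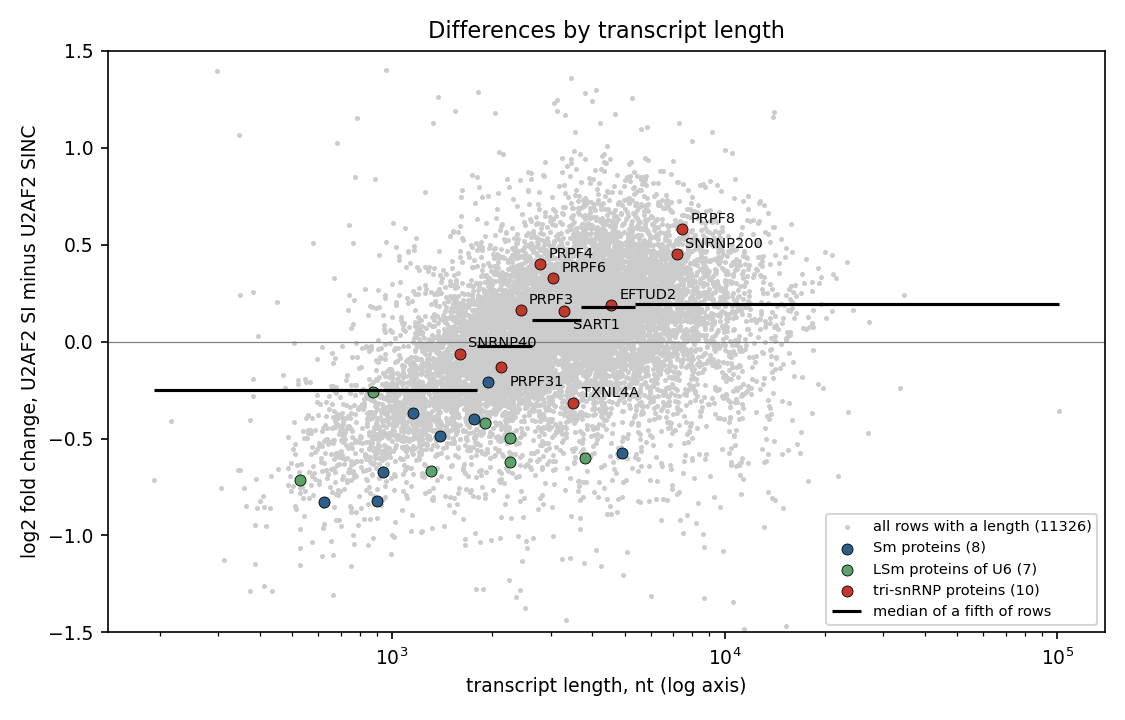
Transcript length on a log axis against the log2 fold change of all 11326 rows with a length (27 lie outside the plotted range), with the 10 genes named in red, the Sm proteins in blue and the U6 LSm proteins in green, and black bars for the median of each of 5 equal length classes. PRPF8 and SNRNP200 lie at the long end above 0, and all 15 Sm and LSm points lie below 0.

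The same particle also holds the small ring proteins that bind the small nuclear RNAs themselves. All 8 Sm proteins had a log2 fold change below 0 (median -0.53), as had all 7 LSm proteins of the U6 ring (median -0.60). An unadjusted p under 0.05 was found for 5 of 8 and 5 of 7, against 4.22% of rows lower in SI-labelled libraries, and 0 passed over all rows in edgeR. Among its 1062 rows DESeq2 called SNRPD2 (-0.84, adjusted p = 0.0422) and LSM7 (-0.73, adjusted p = 0.0459), both lower in SI-labelled libraries. With the length and GC trend removed they were at -0.43 and -0.073. Without independent filtering DESeq2 called 4 rows in all, and its adjusted p for SNRPD2 and LSM7 in that setting is not reported here. SNRPD1 was at 149 ± 19.3 CPM (SD, n = 3) in SI-labelled and 222 ± 37.7 CPM (SD, n = 3) in SINC-labelled libraries. LSM3 was at 102 ± 8.91 CPM (SD, n = 3) and 155 ± 21.7 CPM (SD, n = 3). SNRPD1 and LSM3 have long transcript models, of 4909 and 3815 nt. Their log2 fold changes of -0.58 and -0.60 moved further from 0 with the trend removed, to -0.77 and -0.82. As for TXNL4A, the values with the trend removed depend on those transcript models. The median transcript was 1271.5 nt for Sm and 1908 nt for LSm proteins. With the length and GC trend removed the medians of log2 fold change were -0.28 and -0.38, with 8 of 8 and 6 of 7 below 0. The difference between the ring proteins and the 10 genes was not tested.

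Other proteins of the tri-snRNP or of free U5 lay on both sides of 0. Of 8, 3 lay above and 5 below 0 before trend removal, with 0 at an unadjusted p under 0.05. Their median was -0.24, or -0.087 with the trend removed. PPIH, the cyclophilin bound to PRPF4, was at 97.6 ± 25.9 CPM (SD, n = 3) in SI-labelled and 133 ± 14.5 CPM (SD, n = 3) in SINC-labelled libraries, a log2 fold change of -0.45 that came to -0.058 with the length and GC trend removed. CD2BP2, which binds TXNL4A and leaves before the tri-snRNP forms, was at -0.35, or -0.47 with the trend removed, and SNRNP27 at -0.35, or -0.25. The 15 factors of U5 and tri-snRNP assembly and recycling had a median of 0.12, or 0.019 with the trend removed. Without that removal, 8 of them were above 0 and 0 had an unadjusted p under 0.05. SART3, which anneals U4 to U6, was the 1 of them with no overlap, at 62.8 ± 3.99 CPM (SD, n = 3) in SI-labelled and 50.6 ± 6.41 CPM (SD, n = 3) in SINC-labelled libraries, a log2 fold change of 0.31, or 0.12 with the trend removed.

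Further along the splicing cycle, 5 of 6 spliceosomal helicases other than SNRNP200 and DDX23 lay above 0 (median 0.36, or 0.16 with the length and GC trend removed). DHX8, which releases spliced mRNA, was at 43.8 ± 1.44 CPM (SD, n = 3) in SI-labelled and 33.5 ± 2.03 CPM (SD, n = 3) in SINC-labelled libraries with no overlap. Its edgeR p was 0.0423 unadjusted and 0.653 adjusted, and its log2 fold change of 0.39 came to 0.15 with the trend removed. The 27 proteins of the PRPF19 and intron-binding complexes had a median of -0.05, or 0.026 with the trend removed. Before that removal, 2 were higher and 3 lower at an unadjusted p under 0.05, against 3.15% and 4.22% of all rows. Among them were WBP11 at 0.41 and CWC15 at -0.55, or 0.24 and -0.40 with the trend removed. Of 8 B complex proteins and the tri-snRNP kinase PRPF4B (median 0.16, or -0.015 with the trend removed), UBL5 alone had such a p, at -0.87. DESeq2 called it among its 1062 rows (-0.88, adjusted p = 0.0459), and with the trend removed it was at -0.27. The DESeq2 adjusted p of UBL5 without independent filtering is not reported here. The 5 second-step and disassembly proteins had a median of -0.0096, or -0.14 with the trend removed, and 0 such p. None of these genes passed over all rows in edgeR.

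The rows closest in pattern to PRPF8 over the 6 libraries, by the root mean square difference of centred log2 CPM among 7477 other symbol rows of at least 10 CPM, were BCL9 (0.038), SEC31A (0.047), PCDHGC3 (0.070), POM121C (0.070) and SIK3 (0.072). Of the other 9 genes, SNRNP200 was the nearest at rank 68 (0.12), followed by PRPF4 at rank 247 (0.17). TXNL4A was the farthest, at rank 6014 (0.52).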

How the data were processed

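The authors deposited whole-number read counts per gene or assembled locus, which were taken as unnormalized since library totals differed. The submitters' processing notes list CASAVA and StringTie with no version. Aligner, build, annotation and strand setting: not given in the sources used here. The lowest row mean was 31 counts. Columns were tied to libraries by the sample descriptions, and 0 columns were left over. Per the labels' protocols, the kit keeps strand. Groups were compared with edgeR 4.0.16 in R 4.3.3 (TMM, filterByExpr, glmQLFit, glmQLFTest, group as the only term), with Benjamini-Hochberg adjustment over all 11957 rows and a threshold of 0.05. The biological coefficient of variation was 27.0%. The code was tested on simulated data. Standard errors came from the F statistic, intervals are 95%, and the exact permutation tests on log2 CPM or log2 ratios were 2-sided. Alternatives used DESeq2 1.42.0, limma-voom (limma 3.58.1), other scalings and filters, the replicate number as a block, omission of each library and of assembled loci, and a loess trend (span 0.3) on length and GC content. For each row 1 transcript of GENCODE release 29 was taken, protein-coding before others, then APPRIS principal, then the longest. A transcript of any kind was found for 94.7% of rows. Named genes were the 10 members, U2AF2, the 5 rows closest to PRPF8 (prior count 2) and up to 3 genes of each of 12 lists with the smallest edgeR p. Members and lists were chosen with earlier results of these data known, and the motifs after the files were read. Libraries of a group differed by a chi-square per degree of freedom of 56.0 to 170.1, beyond counting error, so none was the same library sequenced again; repeat preparations of 1 culture would also differ so. Reads carried no molecular identifiers, so counting error understates the error of molecules.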

Additional observations from a re-analysis of the deposited data

How the results depend on the processing

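Over 170 values of the 10 genes under 17 alternatives, 9 changed sign and 1 passed the threshold. That 1 was PRPF8 in DESeq2 (0.56, adjusted p = 0.0459); elsewhere its value ran from 0.38 with the length and GC trend removed to 0.75 with library size alone, and its adjusted p from 0.216 to 0.999 (DESeq2 without independent filtering, added after the data were seen, gave 0.25). Omitting each library in turn gave PRPF8 0.51 to 0.70. Library size alone, which moved the median of all rows from 0.04 to 0.22, put SNRNP40 at 0.14, PRPF31 at 0.045 and NOP56 at 0.056. The length and GC trend, once removed, left EFTUD2 at -0.011, SNRNP40 at 0.014, SNRPC at 0.12 and EFL1 at -0.0035. Omissions of 1 library took SNRNP40 from -0.23 to 0.052, PRPF31 from -0.24 to 0.017, SART1 from -0.13 to 0.34, SLU7 from -0.55 to 0.024, EFL1 from -0.034 to 0.36 and PRPF18 from -0.62 to 0.091. The 1 row called over all rows became 0 under upper-quartile scaling, library size alone, a mean of at least 5 CPM and the trend removal, 61 and 4 in DESeq2 with and without independent filtering, and 0 to 2 when 1 library was omitted. Rows at an unadjusted p under 0.05 were 377 higher and 504 lower, 948 and 201 with library size alone, and 144 to 884 and 240 to 837 with 1 library omitted. Of the 10 genes, 1 to 4 had such a p when 1 library was omitted, against 3.21% to 14.4% of all rows. No overlap was then found for 3 to 7 of the 10, against 17.8% to 35.7% of all rows. The 7 of 10 and the 35.7% were both without SINC-labelled replicate 3. Of the 9 PRPF8 ratios, 4 to 6 had no overlap when 1 library was omitted, and the share over all rows was not computed. Replicate numbers did not pair the libraries (correlations of deviations -0.09, 0.25 and -0.31). Between libraries of unlike number the correlations ran from -0.35 to 0.46, the highest for SI-labelled replicate 1 with SINC-labelled replicate 3. With the replicate block 2 rows passed. In that fit 241 rows were higher and 307 lower at an unadjusted p under 0.05, and 1 of the 10 genes (PRPF8) had such a p. The cause of these shifts was not tested. EFTUD2, PRPF4, PRPF31 and TXNL4A overlap CCDC103, CDC26, TFPT and HSBP1L1 on the opposite strand by 389, 208, 266 and 12 nt of exon, and counting by strand is not stated.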

Other observations

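The neighbouring splicing lists give the setting of the 10 genes. The 10 SF3A and SF3B proteins of the U2 snRNP, which recognise the branch site, divided into 6 above and 4 below 0 (median 0.16), with SF3A1 at 0.44, SF3B6 at -0.63 and PHF5A at -0.64, or 0.22, -0.18 and -0.39 with the length and GC trend removed. The 6 U1 snRNP proteins had a median of -0.02, with LUC7L at -0.32 and no overlap, or -0.17 with the trend removed. Of 11 measured minor spliceosome proteins, SNRNP25 was at -0.55 and PDCD7 at 0.49, or -0.24 and 0.42 with the trend removed. Among proteins related to the 10 genes, EEF2, the elongation factor related to EFTUD2, was at 2706 ± 704 CPM (SD, n = 3) in SI-labelled and 2326 ± 87.5 CPM (SD, n = 3) in SINC-labelled libraries, and 0 of 6 had an unadjusted p under 0.05. All of these had an edgeR adjusted p above the threshold.

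Genes with a row overlap 4 of the 10 on the opposite strand. CDC26, whose exons overlap those of PRPF4, was at 27.9 ± 2.33 CPM (SD, n = 3) in SI-labelled and 41.0 ± 6.16 CPM (SD, n = 3) in SINC-labelled libraries (log2 fold change -0.55), and PRPF4 was at 0.40. HSBP1L1 over TXNL4A was at -0.58, TFPT over PRPF31 at -0.50 and CCDC103 over EFTUD2 at 0.23, where TXNL4A was at -0.32, PRPF31 at -0.13 and EFTUD2 at 0.19. The transcripts of CDC26, HSBP1L1 and TFPT are 872, 771 and 1205 nt, in the length class with a median of -0.25. That of CCDC103 is 3397 nt, in the class with a median of 0.11. A relation between overlapping genes was not tested.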
